A study of Mus musculus with 3 samples.

Results

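The genes described here were 10 C-type lectin receptors of myeloid cells: Clec4e, Clec4d, Clec4n, Clec7a, Mgl2, Clec10a, Mrc1, Cd209a, Cd209e and Clec9a. They were taken by gene symbol from the 55357 genes of both count tables, and each symbol matched 1 row. The data came from tumours grown in mice from 4T1, a mouse mammary carcinoma line, and all cells of the dissociated tumour were sequenced without a sort by 10x Genomics single-cell 3′ RNA sequencing. The sgVC library came from 4T1-sgVC tumours, with a control guide and a genotype given as WT, and the sgCPT1A library came from 4T1-sgCPT1A tumours, with a guide to Cpt1a and a genotype given as a CPT1A knockdown. Cpt1a encodes the enzyme that brings long-chain fatty acids to the mitochondrion for oxidation. In both groups the hosts were female, 8 to 10 weeks old, and tumour-bearing for 8 days. The guide and the altered gene were in the implanted cells, so the myeloid cells described here came from hosts with no stated alteration. The series lists 3 samples, and the additional sgCPT1A sample is not used here, nor is it known whether reads from it were merged into the sgCPT1A table. The series compared the cell makeup of the tumours to ask which immune cells besides CD8 T cells might take part when Cpt1a is depleted. With 1 library per group no difference between the groups was tested. Every interval below is a 95% interval that covers counting error only, not the spread between tumours, and the number of animals behind each library was not given in the sources used here.

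C-type lectin receptors are membrane proteins that bind sugars, lipids or cell debris through a lectin-like domain. Clec4e (Mincle, a receptor for mycobacterial glycolipids and for material of dying cells), Clec4d (MCL, its partner) and Clec4n (Dectin-2, a receptor for fungal mannans) signal through the adaptor Fcer1g, the kinase Syk and the scaffold Card9. Clec7a (Dectin-1, the receptor for fungal beta-glucan) carries its own motif for Syk, as does Clec9a (DNGR-1, which binds actin filaments of dead cells and marks type 1 conventional dendritic cells). Mgl2 and Clec10a are galactose-type lectins, Mrc1 is the mannose receptor CD206, and these genes are widely used marks of alternatively activated macrophages. Cd209a and Cd209e belong to the mouse family related to human DC-SIGN.

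The sgVC library held 9890 barcodes with a median of 10809 unique molecular identifiers (UMIs, counted molecules), and the sgCPT1A library 7198 with a median of 2786. After filtering, 9319 and 6743 cells remained, and 18 barcodes occurred in both libraries. Cells were clustered without the lectin genes and named from marker genes. The neutrophil-like class held 1798 cells in sgVC and 5124 in sgCPT1A, the macrophage-like class 1101 and 208, the monocyte-like class 237 and 73, and the dendritic-like class 213 and 55. All 10 neutrophil, 12 macrophage and 10 monocyte markers, and all 10 markers of each dendritic set, were detected in their own class in both libraries. This does not check the names, since the classes were named from these markers and 1 UMI in a class counted as detection. All 10 neutrophil markers were also detected in the macrophage-like and T-like cells of both libraries. Tumour-like cells numbered 4470 and 44, and in them Cpt1a was at 17.4 CPM (16.7 to 18.1) in sgVC and 31 CPM (19.8 to 46.1) in sgCPT1A. CPM is the usual scaling of counts to a common total, here the UMI total of the class. Of the 44 sgCPT1A cells 30 lay in cluster A21, led by Krt19 and Ptn, which held 13 of the 4470 sgVC cells, so the 2 levels come mostly from different clusters. Cpt1a was also higher in sgCPT1A in host cells, at 7.88 and 15.9 CPM in neutrophil-like and 22.8 and 45.9 CPM in macrophage-like cells. The cause was not tested. Counts from the 3′ end do not read whether a guide has cut a gene, so Cpt1a checked neither label, and sgVC and sgCPT1A are used below as names of the libraries.

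Of the 10 genes, 5 lie on chromosome 6 (GRCm38, GENCODE M21). Clec4n (123229843-123247021, plus strand), Clec4d (123262111-123275265, plus strand) and Clec4e (123281789-123289870, minus strand) are neighbours with no other coding gene between them, and 6.52 kb separate Clec4d from Clec4e. Clec9a (129408862-129424763, plus strand) and Clec7a (129461591-129472779, minus strand) lie further along that chromosome with Clec1a between them. Mgl2 (70130329-70137550) and Clec10a (70156197-70170834) are neighbours on the plus strand of chromosome 11, and Cd209a (3743397-3748984) and Cd209e (3847965-3854309) lie on the minus strand of chromosome 8. Mrc1 spans 14229392-14332057 on the plus strand of chromosome 2. The reference annotation classes 9 of them as protein coding and Clec7a as a polymorphic pseudogene, a gene that is coding in some strains. Of all 50-base stretches in the Mgl2 transcripts, 13.1% also occur in Clec10a or another gene, and of those of Clec10a 9.02% are shared, most with Mgl2, so reads wholly inside such stretches could not be assigned to either. Clec9a shares 4.02% with other genes, most with Clec1b, which overlaps it on the same strand. The share was 0 for Clec4e, Clec4d, Clec7a, Mrc1, Cd209a and Cd209e and 0.686% for Clec4n.

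Promoter sequence is shown for the 4 genes on which the macrophage results turn: the neighbours Clec4e and Clec4d, both at higher levels in sgCPT1A macrophages, and Mgl2 and Mrc1, both at lower levels. Each line gives the bases from 250 to 31 before the RefSeq start (GRCm38.p6), 5′ to 3′ on the gene's strand, and capitals mark matches to the motifs searched.
Clec4e, chr6:123289902-123290121, minus strand: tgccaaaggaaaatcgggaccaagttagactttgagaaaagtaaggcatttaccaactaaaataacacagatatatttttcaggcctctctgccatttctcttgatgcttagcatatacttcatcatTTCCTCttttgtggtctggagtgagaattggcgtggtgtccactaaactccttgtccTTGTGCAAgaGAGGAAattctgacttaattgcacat
Clec4d, chr6:123261857-123262076, plus strand: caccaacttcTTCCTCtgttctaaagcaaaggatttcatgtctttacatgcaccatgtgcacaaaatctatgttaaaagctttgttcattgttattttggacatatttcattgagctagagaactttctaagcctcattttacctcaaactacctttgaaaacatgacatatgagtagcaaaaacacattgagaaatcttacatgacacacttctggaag
Mgl2, chr11:70130107-70130326, plus strand: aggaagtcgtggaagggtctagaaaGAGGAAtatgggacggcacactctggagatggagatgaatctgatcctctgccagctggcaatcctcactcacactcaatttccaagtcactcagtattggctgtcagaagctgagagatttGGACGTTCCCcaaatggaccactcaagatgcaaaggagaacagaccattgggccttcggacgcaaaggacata
Mrc1, chr2:14229164-14229383, plus strand: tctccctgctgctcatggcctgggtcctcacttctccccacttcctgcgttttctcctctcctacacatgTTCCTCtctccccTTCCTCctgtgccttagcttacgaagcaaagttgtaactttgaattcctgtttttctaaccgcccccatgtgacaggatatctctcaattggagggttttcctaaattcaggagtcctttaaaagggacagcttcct
The motifs, searched on both strands, were GAGGAA (the core bound by PU.1, a factor of all myeloid cells), TTGCNNAA (C/EBP), TGANTCA (AP-1), the NF-kB motif GGGA and CC with any 4 bases between, and the STAT6 motif TTC and GAA with any 4 bases between. Clec4e held GAGGAA at 123 to 118 and at 56 to 51 bases before the start, and a C/EBP match at 66 to 59, next to the nearer of these. Clec4d held GAGGAA at 240 to 235, Mgl2 held it at 225 to 220 with an NF-kB match at 103 to 94, and Mrc1 held it at 180 to 175 and 167 to 162. Of 32851 windows of the same length in the table, 20.4% held GAGGAA, 8.78% the C/EBP motif, 15.5% the NF-kB motif, 6.12% the AP-1 motif and 5.22% the STAT6 motif. These matches describe letters in the windows, and binding was not measured. No promoter entry was found for Clec4n or Clec10a.

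The receptors split by cell class (see the plot of levels by class). Clec4e and Clec4d were neutrophil genes in these tumours: the neutrophil class held 83.5% of all Clec4e UMIs of kept cells in sgVC and 96.6% in sgCPT1A, and 66.9% and 92.8% of those of Clec4d. Clec4n and Clec7a were spread over neutrophils, macrophages and monocytes. In sgVC, 62.6% of Clec4n UMIs lay in macrophages and 13.4% in neutrophils, while in sgCPT1A, where neutrophils made up 76.0% of cells against 19.3%, the shares were 14.1% and 74.8%. Mrc1 was a macrophage gene, with 85.3% of its UMIs in that class in sgVC and 61.0% in sgCPT1A. Of Mgl2 UMIs, macrophages held 57.1% in sgVC and 2.54% in sgCPT1A, and dendritic cells 22.6% and 68.3%. Cd209a, Cd209e and Clec9a were dendritic genes, with 90.1%, 73.9% and 84.3% of their sgVC UMIs in the dendritic class. Shares of UMIs follow the numbers of cells as well as the level in each, so the levels within classes are given next.

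**Figure D1:**
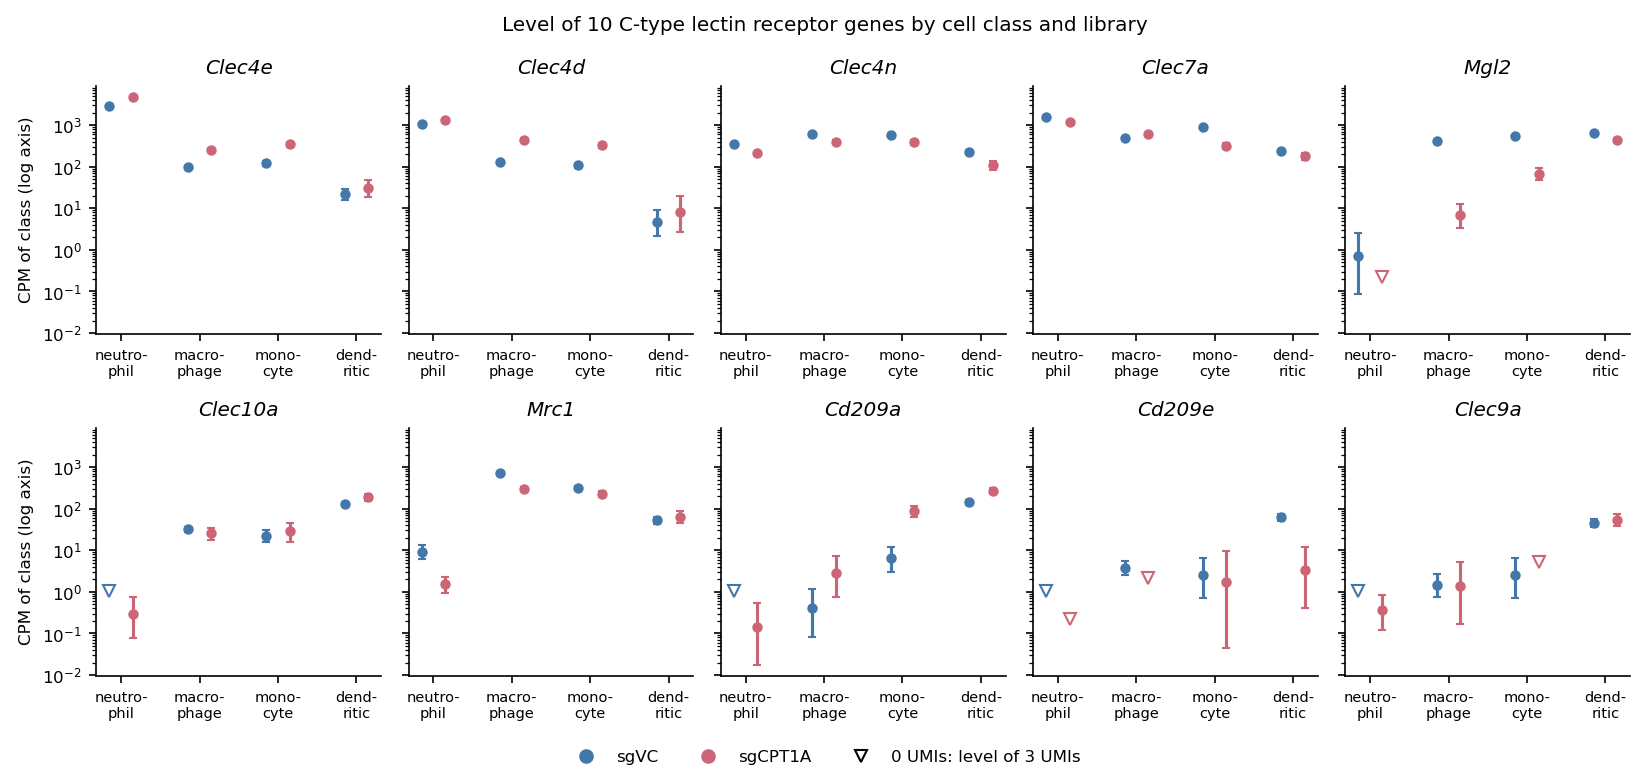
Level of each receptor gene (CPM of the class, log axis) in 4 cell classes, with sgVC in blue and sgCPT1A in red. Points are the pooled level of all cells of a class in 1 library, bars the 95% counting interval, and open triangles stand at the level of 3 UMIs where 0 were counted. Mgl2 shows the widest gap between libraries, in macrophages.

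Clec4e was the most abundant of the 10 in neutrophils. Its level was 2882 CPM (2820 to 2946) in the sgVC library and 4651 CPM (4615 to 4687) in the sgCPT1A library, a log2 ratio of 0.69 (0.66 to 0.72). The gap was present in each of the 4 neutrophil clusters: 4457 against 5023 CPM in A0, 2677 against 3416 in A1, 2846 against 4906 in A3 and 3968 against 4979 in A4. The clusters were filled unevenly, since A3 held 975 of the 1798 sgVC neutrophils while A0 and A4 held 2005 and 1386 of the 5124 in sgCPT1A. Within clusters the log2 ratio ran from 0.17 (A0) to 0.79 (A3). Of the genes tested in each cluster, 60.6% had a lower ratio than Clec4e in A0, 78.2% in A1, 91.1% in A3 and 56.0% in A4. In A0 and A4 Clec4e was thus not far from the median gene. After each cell was thinned to 1000 UMIs, with 331 and 461 shallower cells left out, Clec4e was seen in 79.7% (77.5 to 81.7) of sgVC against 91.6% (90.7 to 92.3) of sgCPT1A neutrophils, against 84.9% and 96.3% without thinning. In T-like cells, which should lack the gene, the thinned shares were 1.15% and 10.1%.

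Clec4d, the partner of Clec4e, stood at 1051 CPM in sgVC against 1346 CPM in sgCPT1A neutrophils, a log2 ratio of 0.36 (0.30 to 0.41), and the ratio was above 0 in all 4 clusters (0.16 in A3 to 0.77 in A4). Of the genes tested, 66.0% had a lower ratio than Clec4d in A0, 87.1% in A1, 72.0% in A3 and 66.8% in A4. Clec4n went the other way, at 346 and 218 CPM with a log2 ratio of -0.67 (-0.77 to -0.56). It was lower in A0, A1 and A3 (-1, -0.61 and -0.78), and in A4 the ratio was 0.69 with an interval that spans 0 (-0.20 to 1.75, from 10 UMIs in sgVC). Clec7a stood at 1556 and 1164 CPM, a log2 ratio of -0.42 (-0.47 to -0.37). Its ratio was not of 1 sign, with 0.12 (0.04 to 0.19) in A1 against -0.49 in A3 and -0.28 in A0. The median gene of the neutrophil class had a log2 ratio of -0.30, and relative to it Clec4e was at 0.99, Clec4d at 0.65, Clec4n at -0.37 and Clec7a at -0.12. None of these 4 genes passed the 2-fold mark in neutrophils. Mrc1 did, at 9.31 CPM in sgVC and 1.53 in sgCPT1A (log2 -2.60, -3.51 to -1.72), from 26 and 21 UMIs. At that level it was seen in 1.11% and 0.371% of neutrophils, and T-like cells held 1.49 CPM in sgVC. The other 5 receptors had at most 5 UMIs in the neutrophils of either library.

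In macrophages Clec4e and Clec4d were both higher in sgCPT1A. Clec4e stood at 96.1 CPM (89.2 to 103) in sgVC and 251 CPM (226 to 279) in sgCPT1A, a log2 ratio of 1.39 (1.20 to 1.57). Clec4d stood at 128 and 447 CPM, a log2 ratio of 1.81 (1.66 to 1.96). Both gaps were smaller within the 1 deep macrophage cluster that both libraries filled. This cluster, B4, led by Pf4, Arg1 and Mmp12, held 41 sgVC and 121 sgCPT1A cells, and there Clec4e was at 206 and 300 CPM (log2 0.55, 0.13 to 0.99) and Clec4d at 423 and 528 CPM (0.32, 0.03 to 0.63). The other sgVC macrophages lay mostly in clusters that were almost absent from sgCPT1A, such as B0 (233 and 9 cells) and B1 (208 and 3 cells). Over the 2 macrophage clusters with at least 20 cells in each library, B2 and B4, the log2 ratios were 0.94 for Clec4e and 0.88 for Clec4d, both short of the 2-fold mark. Within the shallow cluster B2 alone they were 0.58 (-0.84 to 1.95, from 12 and 9 UMIs) and 0.32 (-1.64 to 2.11, from 8 and 5 UMIs). The pooled ratios were above those of either cluster. The libraries filled the 2 clusters in different proportions, with 149 sgVC and 54 sgCPT1A cells in B2.

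Clec4e was also counted in cells that should lack it. Free RNA and doublets, which were not removed from sgCPT1A, were not told apart as its source there. T-like cells held 14.3 CPM of Clec4e in sgVC and 161 CPM in sgCPT1A, and of Clec4d 2.98 and 59.6 CPM. The neutrophil gene S100a9 stood at 179 and 1351 CPM in the same cells. Per 100 UMIs of S100a9 there were 6.11 UMIs of Clec4e in sgVC neutrophils and 14.1 in sgCPT1A neutrophils, and 7.97 and 11.9 in T-like cells. In macrophages the figure was 191 (168 to 217) and 161 (136 to 191), with S100a9 itself at 50.4 and 156 CPM. In monocytes it was 36.0 and 93.8. In dendritic cells it was 49.4 (33.3 to 72.3) in sgVC and 7.12 (4.22 to 11.3) in sgCPT1A. The 10 neutrophil markers together stood at 607 CPM in sgVC against 2384 CPM in sgCPT1A macrophages, and all 10 were detected in both. Mmp9, a matrix protease, made 364 and 1826 CPM of these sums, and stood at 398 and 307 CPM in neutrophils. The calprotectin genes were higher in sgCPT1A macrophages as well, S100a8 at 69.1 and 265 CPM and S100a9 at 50.4 and 156 CPM, as was Csf3r, the receptor for Csf3, at 34.8 and 67.8 CPM. The part of these markers in the macrophage ratios of Clec4e and Clec4d was not tested. With free RNA subtracted in proportion to the profile of each library, the macrophage log2 ratio was 1.05 for Clec4e and 1.76 for Clec4d.

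**Figure D2:**
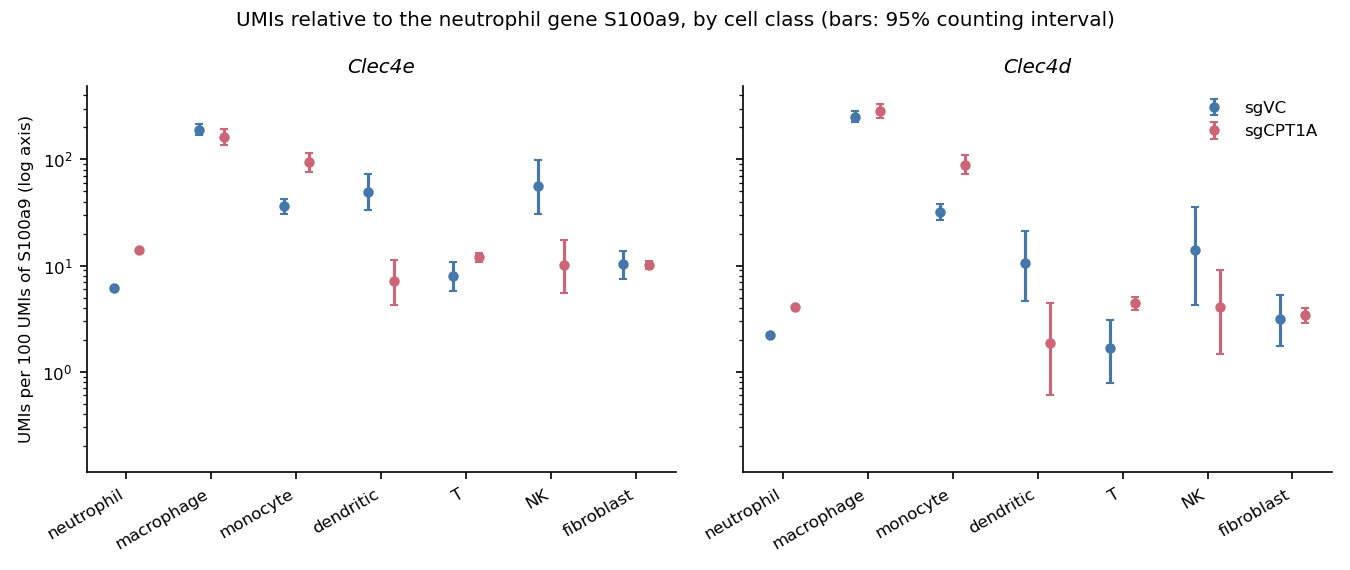
UMIs of Clec4e and Clec4d per 100 UMIs of the neutrophil gene S100a9 (log axis) by cell class, sgVC in blue and sgCPT1A in red, with 95% counting intervals. For Clec4e, macrophages sit at 191 and 161, above neutrophils at 6.11 and 14.1 and T-like cells at 7.97 and 11.9.

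Clec4n and Clec7a, the Dectin-2 and Dectin-1 genes, stayed between the 2-fold marks over the macrophage class. Clec4n was at 606 CPM in sgVC against 398 CPM in sgCPT1A (log2 -0.61, -0.74 to -0.48), and at 690 and 466 CPM within B4 (-0.57). Clec7a was at 501 and 616 CPM (log2 0.30, 0.19 to 0.41), and at 739 and 664 CPM within B4 (-0.15, -0.39 to 0.08). Within the shallow cluster B2 both were lower by more than 2-fold, where 23.7% of 1819 genes were lower by at least 2-fold. There Clec4n was at -1.49 (-3.22 to -0.09, from 28 and 5 UMIs). Clec7a was at -1.21 (-2.52 to -0.08, from 37 and 8 UMIs), opposite to its ratio over the class. The thinned share of macrophages with a Clec7a UMI ran against the pooled level, at 26.4% in sgVC and 20.1% in sgCPT1A, and 1 cell held 9.29% of the sgCPT1A UMIs, so no order is read for Clec7a.

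In monocytes the class was made of different clusters in the 2 libraries. B5, led by MHC class II genes and carrying many macrophage markers, held 158 of 237 sgVC cells and 3 of 73 in sgCPT1A, while B6 held 79 and 70. Over the class, Clec4e stood at 120 and 346 CPM (log2 1.53, 1.23 to 1.82) and Clec4d at 107 and 330 CPM (1.62, 1.31 to 1.93). Within B6 Clec4e was at 319 and 356 CPM (0.16, -0.18 to 0.51) and Clec4d at 213 and 332 CPM (0.64, 0.24 to 1.04). Clec7a was lower in sgCPT1A over the class, at 899 and 318 CPM (-1.50, -1.73 to -1.28), and within B6, at 595 and 278 CPM (-1.10, -1.41 to -0.79). Clec4n had a log2 ratio of -0.60 over the class and of 0.87 (0.48 to 1.27) within B6, so its sign depended on which clusters were compared. Summed neutrophil markers in monocytes were at 964 CPM in sgVC, with 10 of 10 detected, and 894 CPM in sgCPT1A, with 9 of 10, and their part in the Clec4e and Clec4d ratios was not tested.

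**Figure D3:**
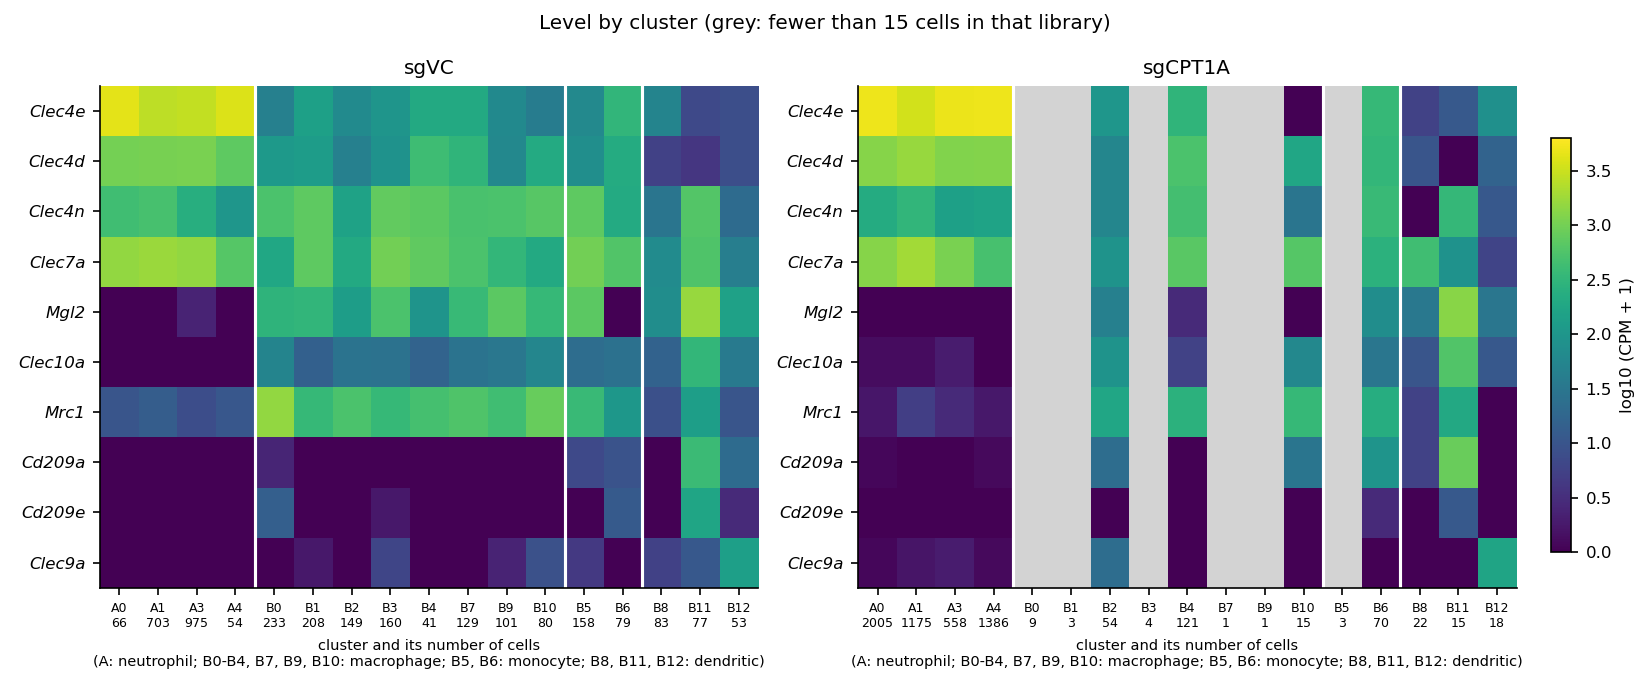
Level of each receptor gene by cluster, as log10 of CPM plus 1, in sgVC (left) and sgCPT1A (right), with the number of cells under each cluster. Grey columns had fewer than 15 cells, and they show that clusters B0, B1, B3, B5, B7 and B9 were almost empty in sgCPT1A.

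Mgl2 showed the largest difference of the 10 genes. In sgVC macrophages it stood at 418 CPM (403 to 433) from 3107 UMIs, and in sgCPT1A macrophages at 7.06 CPM (3.39 to 13) from 10 UMIs, a log2 ratio of -5.89 (-6.95 to -5.01) or 59.1-fold lower. Of the genes tested in macrophages, 0.743% had a lower ratio. In sgVC it was present in every macrophage cluster, from 91.4 CPM in B4 and 131 CPM in B2 to 706 CPM in B9. The gap remained where both libraries had cells: within B4 Mgl2 was at 91.4 and 1.84 CPM (24 and 2 UMIs, log2 -5.64, -8.76 to -3.63), and within the shallow cluster B2 at 131 and 43.6 CPM (24 and 4 UMIs, -1.59, -3.57 to -0.04). Lower ratios were common in B2, where the median gene was at -0.37 and 23.7% of 1819 genes were lower by at least 2-fold. In B4 5.23% of 5950 genes were. Of the genes tested in B2, 8.03% had a lower ratio than Mgl2. After thinning, 21.6% (19.1 to 24.3) of sgVC against 1.09% (0.132 to 3.87) of sgCPT1A macrophages had a UMI, and 39.7% and 1.92% without thinning. T-like cells held 0.596 and 0.301 CPM of Mgl2.

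In monocytes Mgl2 stood at 543 and 67.4 CPM (log2 -3.01), but 37 of the 38 sgCPT1A UMIs were in 1 cell. In sgVC the gene lay in B5, at 707 CPM, and had 0 UMIs in the 79 cells of B6. All 38 sgCPT1A UMIs were in B6, at 70.8 CPM or at least 8.52-fold higher than in sgVC, so within B6 Mgl2 ran opposite to the class and rested on that 1 cell. In dendritic cells the gap was smaller, at 643 CPM (608 to 680) and 444 CPM (392 to 500), a log2 ratio of -0.54 (-0.73 to -0.34). Type 2 conventional dendritic-like cells held it at the highest level of any class or subset, 1613 CPM in 77 sgVC cells and 1349 CPM in 15 sgCPT1A cells, 1 of which held 33.2% of the UMIs.

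Clec10a, the neighbour of Mgl2 on chromosome 11, did not show that pattern. It was at 31.7 and 25.4 CPM in macrophages (log2 -0.32, -0.87 to 0.19) and at 22.5 and 28.4 CPM in monocytes (0.34, -0.62 to 1.23). In dendritic cells it was at 131 and 190 CPM (0.53, 0.20 to 0.85), with 326 and 585 CPM in the type 2 subset.

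Mrc1 stood at 717 CPM (698 to 737) in sgVC macrophages and 306 CPM (278 to 337) in sgCPT1A, a log2 ratio of -1.23 (-1.37 to -1.09). Its highest level was in B0, at 1506 CPM, a cluster led by Ccl8, Pf4 and complement genes that held 233 sgVC and 9 sgCPT1A cells. Within B4 the levels were 472 and 276 CPM (-0.78, -1.08 to -0.46), short of the 2-fold mark, and within B2 524 and 175 CPM (-1.59, -2.45 to -0.81). Of the genes tested in B2, 8.03% had a lower ratio than Mrc1. The thinned share was 37.8% in sgVC and 23.9% in sgCPT1A. In monocytes Mrc1 was at 316 and 227 CPM over the class (-0.48, -0.77 to -0.19) and at 102 and 231 CPM within B6 (1.17, 0.63 to 1.74), again with opposite signs. In dendritic cells it was at 52.3 and 62.7 CPM (0.26, -0.32 to 0.81).

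**Figure D4:**
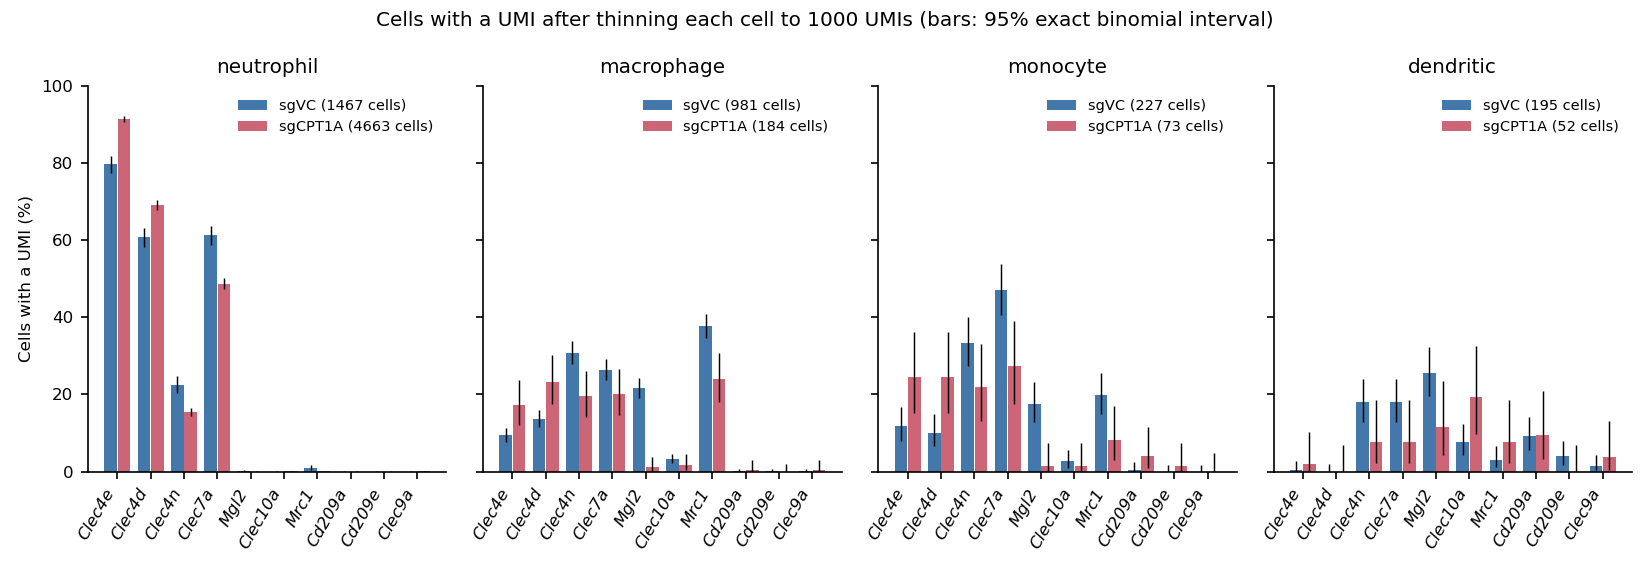
Percent of cells with at least 1 UMI of each receptor gene after each cell was thinned to 1000 UMIs, by class, sgVC in blue and sgCPT1A in red, with exact binomial intervals. Mgl2 was seen in 21.6% of 981 sgVC macrophages and in 1.09% of 184 sgCPT1A macrophages.

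The Cd209 genes and Clec9a were low outside dendritic cells. Clec9a lay in type 1 conventional dendritic-like cells, at 138 CPM (109 to 173) in 53 sgVC cells and 166 CPM (114 to 233) in 18 sgCPT1A cells, and over the dendritic class the log2 ratio was 0.27 (-0.35 to 0.87). Cd209a lay in the type 2 subset, at 383 CPM (338 to 432) in sgVC and 848 CPM (722 to 990) in sgCPT1A, where 1 cell of 15 held 41.0% of the UMIs. Over the dendritic class it was at 142 and 267 CPM (0.91, 0.62 to 1.20). In monocytes Cd209a was at 6.42 and 86.9 CPM (log2 3.76, 2.76 to 4.91), from 10 and 49 UMIs, and 9.59% of sgCPT1A monocytes carried it. After thinning, 1 of 73 sgCPT1A monocytes held Cd209a, Mgl2 and Clec10a together, and no other held Mgl2 or Clec10a. These 3 genes were also found together in the type 2 dendritic-like subset, and whether that cell was dendritic was not tested. Cd209e was counted at 119 UMIs in sgVC dendritic cells, 118 of them in the type 2 subset and 36 in 1 cell, and at 2 UMIs in sgCPT1A (62.2 and 3.30 CPM, log2 -4.24, -7.30 to -2.35). It had 28 UMIs in sgVC macrophages, 16 of them in 1 cell, and 0 in sgCPT1A, where 3 UMIs would be 2.12 CPM, so it was at least 1.78-fold lower.

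In dendritic cells Clec4n and Clec7a lay mainly in the type 2 subset in sgVC, and Clec4e and Clec4d were low in every subset. In the type 2 subset Clec4n stood at 603 CPM in sgVC against 343 CPM in sgCPT1A, and over the dendritic class at 231 and 111 CPM (log2 -1.06, -1.46 to -0.69). Clec7a stood at 236 and 180 CPM over the class (-0.39, -0.71 to -0.09), but 85 of the 109 sgCPT1A UMIs were in 1 mature dendritic-like cell, and in the type 2 subset it was at 562 and 84.3 CPM. Clec4e was at 22.0 and 31.3 CPM (0.51, -0.35 to 1.33). In sgVC 33 of its 42 UMIs were in 1 cell, and in sgCPT1A 15 of 19 were. Clec4d had 9 and 5 UMIs. Summed neutrophil markers in dendritic cells were at 203 CPM in sgVC, with 10 of 10 detected, and 856 CPM in sgCPT1A, with 9 of 10.

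Counts over all members were set against the same counts over all genes with at least 20 UMIs in the 2 libraries together (see the plot of ratios by class). In neutrophils 5 of the 10 receptors met that minimum, 0 were higher by at least 2-fold and 1 was lower, where 10.7% and 19% of 9208 genes were. In macrophages 8 met it, 2 were higher (Clec4e and Clec4d) and 3 were lower (Mgl2, Mrc1 and Cd209e), where 6.78% and 12.3% of 10494 genes were. With only clusters B2 and B4, those with at least 20 cells in each library, macrophages had 0 higher and 1 lower, Mgl2. In monocytes 8 met it, 3 were higher (Clec4e, Clec4d and Cd209a) and 2 were lower (Clec7a and Mgl2), against 8.08% and 15.3% of 7335 genes. Within B6, the only monocyte cluster with at least 20 cells in each library, the genes called were others. There Cd209a, Mrc1 and Mgl2 were higher and Clec7a was lower, where 7.07% and 4.98% of 4824 genes were. Mgl2 in B6 had 38 sgCPT1A UMIs against 0, mostly in 1 cell. In dendritic cells 9 met it, 0 were higher and 2 were lower, against 5.21% and 10% of 7732 genes. The dendritic count of 0 higher was not stable: it was between 1 and 6 under 7 alternatives, and 6 with classes from each cell's own markers. The monocyte counts were 1 higher under 3 alternatives and 1 lower under 5. The median log2 ratio of the receptors counted was -0.42 in neutrophils, -0.32 in macrophages, -0.07 in monocytes and 0.26 in dendritic cells, beside -0.30, -0.12, -0.14 and -0.08 for all genes.

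**Figure D5:**
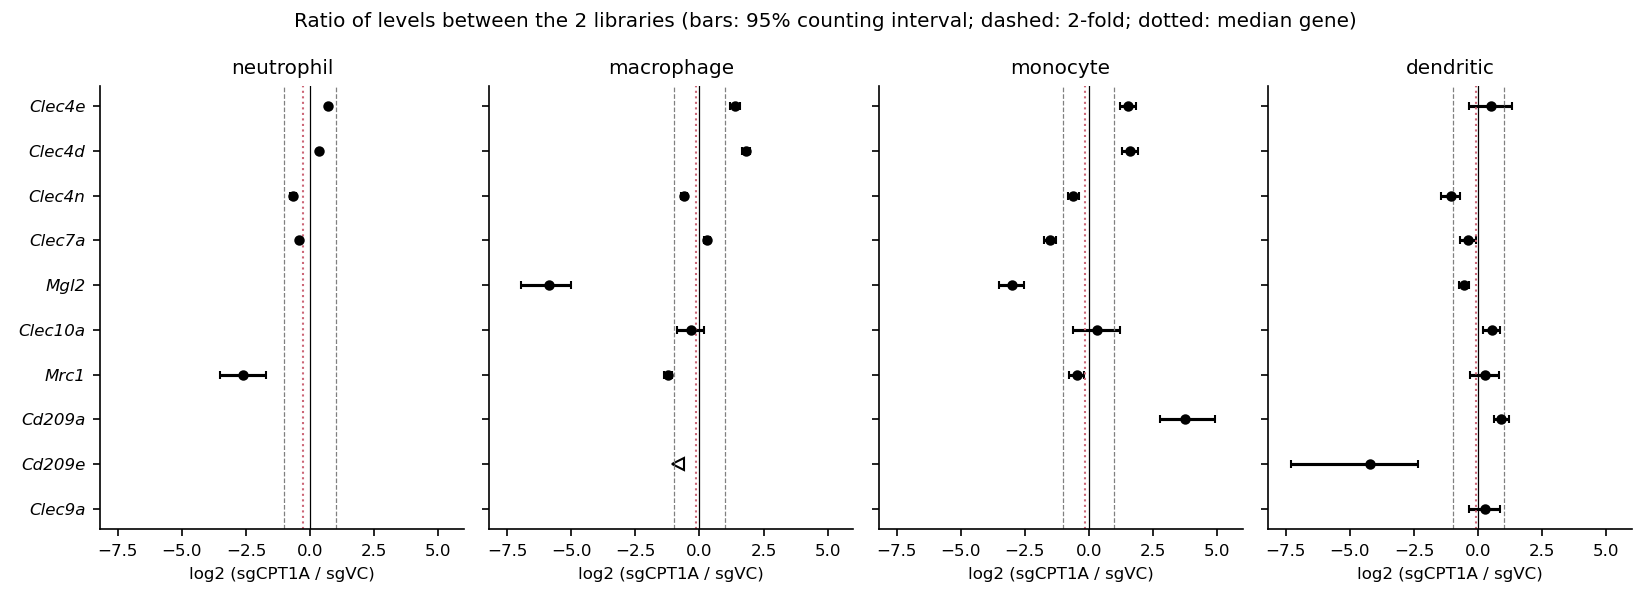
Log2 ratio of the pooled level in sgCPT1A over sgVC for each receptor gene with at least 20 UMIs, by class, with 95% counting intervals, 2-fold marks (dashed) and the median gene (dotted). Mgl2 in macrophages is the farthest below 0 at -5.89, and the open triangle is a bound for Cd209e, whose 0 UMIs in sgCPT1A macrophages count as lower although the bound is under 2-fold.

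Whether receptors occurred in the same cells was described in thinned cells by the share with both genes over the product of the 2 single shares. In neutrophils Clec4n and Clec7a were at 1.20 times the product in sgVC and 1.24 in sgCPT1A. Clec4e was seen in so many neutrophils that its ratio could not rise far above 1, though it could fall below. With Clec4d, Clec4n and Clec7a it was between 0.971 and 1.03 times the product in both libraries. In sgVC macrophages Clec4e and Clec4d were at 1.83 times the product and in sgCPT1A at 1.87. In sgVC Mgl2 and Clec10a were at 2.09 times, from 14 cells with both. Clec4e was below the product with Mgl2 (0.553 times, 11 cells) and with Mrc1 (0.604 times, 21 cells). In monocytes Clec4e and Clec4d were below the product, at 0.731 times in sgVC (2 cells with both) and 0.676 in sgCPT1A (3 cells). These figures pool clusters that differ in level. Within cluster B0 of sgVC, Mgl2 and Clec10a were at 1.26 times (4 cells), Clec4e and Mrc1 at 0.829 (6 cells), Clec4e and Clec4d at 1.55 (2 cells) and Clec4e and Mgl2 at 0.395 (1 cell). The shares come from cells of 1 library each, and shared sequence can add to the Mgl2 and Clec10a figure.

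Of the other genes of the Syk-Card9 pathway, most lay between the 2-fold marks, with list medians of -0.07, -0.28, 0.37 and 0.07 in neutrophils, macrophages, monocytes and dendritic cells. In neutrophils 1 of 17 measured was higher and 1 was lower, where 10.7% and 19% of all genes were. Malt1, the protease that works with Card9, stood at 188 and 563 CPM (log2 1.58), and Card9 itself at 7.52 and 2.55 CPM (-1.56). The adaptors Fcer1g and Tyrobp were the most abundant, at 3950 and 3772 CPM (-0.07) and at 1787 and 1113 CPM (-0.68). In macrophages 1 of 18 was higher (Src, 27.2 and 55.8 CPM) and 1 lower (Card9, 26.6 and 10.6 CPM, -1.33), where 6.78% and 12.3% of all genes were. In monocytes 1 of 18 was higher (Syk, 79.6 and 176 CPM) and 2 were lower, Card9 (39.2 and 17.7 CPM) among them, and in dendritic cells 1 of 17 was higher (Syk, 40.3 and 82.5 CPM) and 0 lower. Of all genes, 8.08% were higher and 15.3% lower in monocytes, and 5.21% and 10% in dendritic cells.

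Genes known as targets of these receptors included cytokines and chemokines, with list medians of 0.54, 0.20, 0.14 and -0.03 in the same order of classes. In neutrophils 5 of 16 were higher and 1 was lower, where 10.7% and 19% of all genes were. Csf3, the growth factor of neutrophils, stood at 55.5 and 302 CPM (log2 2.44, 2.21 to 2.68). The neutrophil-attracting chemokine Cxcl2 and the cytokine Il1b were the most abundant, with log2 ratios of 0.52 and -0.07. In macrophages 2 of 14 were higher, Csf3 at 5.38 and 51.5 CPM (3.26) and the early response factor Egr3 at 11.4 and 26.1 CPM (1.19), and 0 were lower, where 6.78% and 12.3% of all genes were. In monocytes 1 of 10 was higher and 2 were lower (8.08% and 15.3% of all genes), and in dendritic cells 1 of 14 was higher and 4 were lower (5.21% and 10% of all genes), with Cxcl1 at -1.44 and -1.47.

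Other genes of alternative activation did not all follow Mgl2 and Mrc1, and the list medians were -0.63, -0.31, -1.03 and -0.86. In macrophages 3 of 17 were lower and 1 was higher, where 12.3% and 6.78% of all genes were. The chemokine gene Ccl24 stood at 745 and 109 CPM (log2 -2.77, -3.01 to -2.54), and Ccl17 at 22.2 and 0.706 CPM (-4.97), from 165 UMIs and 1. Arg1, the arginase that marks such cells, was higher in sgCPT1A, at levels of 2081 and 4780 CPM (1.20, 1.16 to 1.24), and Ccl8 was at 0.50. In monocytes 6 of 12 were lower and 0 higher (15.3% and 8.08% of all genes), with Ccl24 at -3.49, Arg1 at -2.09 and Retnla at -4.67. These ratios pool clusters that the libraries filled unevenly, and ratios within clusters were not computed for this list. Ccl24 was a leading gene of macrophage clusters B1 (208 sgVC and 3 sgCPT1A cells), B7 (129 and 1) and B9 (101 and 1). Both Ccl24 and Arg1 were leading genes of monocyte cluster B5 (158 and 3). Arg1 was a leading gene of B4 (41 and 121) and of every other macrophage cluster except B9. In dendritic cells 5 of 9 were lower and 1 was higher (10% and 5.21% of all genes), with Ccl17 at 619 and 56.1 CPM (-3.46), Ccl22 at 629 and 219 CPM (-1.52) and Pdcd1lg2 at 145 and 47.8 CPM (-1.60). Ccl17 and Ccl22 were also markers used to name the mature dendritic-like cells. Chil3, counted as lower in monocytes, was a marker used to name those. In neutrophils 3 of 10 were lower and 1 was higher (19% and 10.7% of all genes), with Ccl8 at 63.7 and 23.9 CPM (-1.42).

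Of 30 other C-type lectin receptor genes, 12 were measured in neutrophils, and 4 were higher and 1 lower, where 10.7% and 19% of all genes were. The list medians were 0.48, 0.22, 0.11 and -1.05. Clec2d, a ligand of an NK cell receptor, stood at 145 and 328 CPM (log2 1.17), Clec1a at 15.4 and 46.3 CPM (1.59) and Olr1, the receptor for oxidised LDL, at 29.4 and 71.2 CPM (1.28). In macrophages 3 of 14 were higher and 2 were lower (6.78% and 12.3% of all genes), Clec5a at 120 and 47.3 CPM (-1.35) and the activation marker Cd69 at 83.5 and 31.8 CPM (-1.39). In monocytes 0 of 10 passed the 2-fold mark in either direction (8.08% and 15.3% of all genes). In dendritic cells 7 of 13 were lower and 0 higher (10% and 5.21% of all genes), with Clec5a at 37.1 and 6.6 CPM (-2.49) and Cd302 at 39.8 and 13.2 CPM (-1.59).

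Genes with the most similar pattern were found by Pearson's r over 15 combinations of class and library, among 14719 genes on a log2 scale. These combinations share 2 libraries, so r is a description. Acod1 (r = 0.977), Csf3r and Slfn4 were closest to Clec4e, Fpr2 (0.984) to Clec4d, Clec5a (0.965) to Clec4n and Tarm1 (0.970) to Clec7a. Mvd (0.954) was closest to Mgl2, Arl8b (0.941) to Clec10a and Fcgr1 (0.964) to Mrc1. Siglech (0.988) was closest to Cd209a, Cd209d (0.980) to Cd209e and Xcr1 (0.976), a marker of type 1 dendritic cells, to Clec9a. Csf3r, Fcgr1 and Xcr1 were also markers used to name the neutrophil, macrophage and type 1 dendritic classes, so their r is partly built in. The type 1 and type 2 dendritic subsets were among the combinations only in sgVC, which limits the figures for Clec9a, Cd209a and Cd209e. The unnamed cluster B14, which had Siglech among its leading genes, was not among the combinations, so the figure for Cd209a leaves those cells out.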

How the data were processed

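The authors deposited 1 table of raw UMI counts for each library, written by Cell Ranger 7.1.0 per the file headers. The submitters' processing notes also name Seurat 4.1.0 and GRCm38, while no source used here gives the annotation release or how cells were called. The receptors, gene lists and tests were chosen with earlier results of these data known. A barcode needed 200 genes or more and a mitochondrial share of no more than 20%, which removed 280 sgVC and 455 sgCPT1A barcodes. Doublets were sought per library with Scrublet: the 291 found in sgVC (3.03%) were removed, but a single call in sgCPT1A (0.0148%) was taken as a failed run and that library was not corrected.

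Libraries were clustered together without integration and without lectin genes (2000 variable genes, 30 components, 15 neighbours, Leiden resolution 1; scanpy 1.11.5, Python 3.11.15), and monocyte, macrophage and dendritic clusters were clustered again. A cluster took the class with most markers at least 2-fold over the median cluster in at least 10% of cells (at least 3 markers), and mixed clusters stayed unnamed. Naming settings were set with the data in hand: the dendritic marker sets were pooled in the check of top genes, without which the type 2 cluster would have stayed unnamed. Its 10 markers were all above the mark.

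Counts were summed per class and library and given as CPM, with exact Poisson intervals, exact conditional binomial intervals for ratios and Clopper-Pearson intervals for shares. A gene was counted with at least 20 UMIs in both libraries together and called at 2-fold. The calculation was tested on simulated data. All receptors were named. Of each other list, the 2 genes of highest level and the 2 of largest ratio in a class, with at least 50 UMIs, could be named. Alternatives covered cell filters, doublets, clustering, class rules, scaling, free RNA, single cells, count minimum and depth. Promoters came from RefSeq, which gave 8 of the 10 receptors.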

Additional observations from a re-analysis of the deposited data

Results flagged for a closer look

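Clec7a, the Dectin-1 gene, had ratios of opposite sign in different classes. The log2 ratio of sgCPT1A over sgVC was 0.30 in macrophages, against -0.42 in neutrophils and -1.50 in monocytes. Each kept its sign in all 14 alternatives that gave a ratio, but this was a condition for being flagged. The difference between classes was not tested, since each class had 1 library per group. Within macrophage cluster B4 the ratio was -0.15, and within the shallow cluster B2 it was -1.21 (from 37 and 8 UMIs). The thinned share of macrophages with a UMI was lower in sgCPT1A (20.1% against 26.4%). For these reasons no order was read in macrophages. Within neutrophil clusters the ratio was 0.12 in A1, against -0.28 in A0, -0.49 in A3 and -0.36 in A4. Over the neutrophil class it was -0.12 relative to the median gene, and -0.03 with each library clustered alone.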

How the results depend on the processing

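Among the log2 ratios recomputed under alternatives, 268 stayed inside the counting interval of the reported ratio, 110 left it, and 14 had the opposite sign to a reported ratio whose interval excluded 0. The sign held in all 14 alternatives for the 5 neutrophil receptors with enough UMIs, for Clec4e (0.81 to 2.25), Clec4d (0.88 to 2.44), Clec4n, Clec7a, Mgl2 (-7.66 to -3.85) and Mrc1 (-1.28 to -0.60) in macrophages, and for Clec4e (0.13 to 2.17), Clec4d (0.64 to 1.76) and Clec7a (-2.06 to -0.93) in monocytes. In monocytes Clec4n reversed to 0.65 at 10% mitochondrial UMIs, 0.65 at Leiden resolution 0.5, 0.44 at resolution 2, 0.76 with lectin genes among the variable genes and 0.87 with only clusters of at least 20 cells in each library, an alternative chosen after seeing the data, as was leaving out shallow clusters. Mgl2 reversed there to 3.81 at resolution 0.5, and Mrc1 to 0.30 at resolution 0.5, 0.90 with lectin genes and 1.17 with the filled clusters. In dendritic cells Clec7a reversed to 0.71 with classes from each cell's own markers, 0.11 as a mean over cells and 2.68 with the filled clusters, Mgl2 to 0.31 with own markers, and Clec10a to -0.68 with the filled clusters. The number of neutrophil receptors higher by 2-fold was 1 with each library clustered alone (Clec4e) and 1 at a minimum of 5 UMIs, and the number lower was 0 at 50 UMIs. Macrophages had 1 higher as a mean over cells, and 0 higher and 1 lower with the filled clusters. Monocytes had 1 higher at 10% mitochondrial UMIs, at resolution 2 and with lectin genes, and 1 lower under those 3, at resolution 0.5 and with the filled clusters. Dendritic cells had 2 higher at 500 genes per cell, 1 at 10% mitochondrial UMIs, 3 at resolution 0.5, with lectin genes and with libraries clustered alone, 6 with own markers and 1 with the filled clusters. They had 1 lower at 500 genes, with libraries alone, with own markers and with scaling by the median gene. The causes were not tested. No paired analysis was possible because each group had 1 library, and for the same reason no library could be left out. Low UMI numbers limited Cd209e, Clec9a and all dendritic subsets.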

Other observations

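Cluster B13, which stayed unnamed because it carried neutrophil, macrophage and monocyte markers together, held 25 sgVC and 27 sgCPT1A cells. The Clec4e level there was 674 CPM in the sgVC cells and 1458 CPM in the sgCPT1A cells, and that of Mrc1 was 258 and 284 CPM. These cells are in none of the classes described above.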
